A study of Mus musculus with 6 samples.

Results

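Respiratory complex I is described here through the genes of its nuclear-encoded subunits and assembly factors. The members were all rows of the deposited count table whose symbol starts with Nduf: 46 of 24091 rows, 38 with the names of subunits and 8 assembly factors (symbols starting with Ndufaf). The rule used gene names only, but earlier results of these data were known when the members were chosen. The cells were mouse hematopoietic stem cells, the marrow cells that renew all blood lineages. They had been sorted as negative for lineage markers and CD48 and positive for Sca-1, c-Kit and CD150, and were labelled wild type. Both ages had 3 libraries: aged 1 to aged 3 from animals 20 months old, and young 4 to young 6 from animals 2 months old. Cells of 4 mice were pooled on the aged side and cells of 30 mice on the young side. The labels leave unclear whether that is per library or per age. The p-values below therefore cover only how much pooled libraries vary, part of which may be technical.

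Complex I is the entry point of the mitochondrial respiratory chain. It takes electrons from NADH, passes them along a chain of iron-sulfur clusters to ubiquinone and pumps protons across the inner membrane. Its N module oxidises NADH, its Q module reduces ubiquinone, and its P module is the membrane arm that pumps. Core subunits, which carry the catalysis, are conserved from bacteria, and accessory subunits surround them. Assembly factors build or modify the parts and then leave the complex. Stem cells at rest are known for relying little on respiration, and they draw on it more when they start to divide. The mitochondrially encoded subunits were not analysed here.

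The libraries held 16452829 to 21918658 counts. Young 4 stood apart from the other young libraries: the correlation of log2 CPM (Pearson's r) over all tested genes was 0.951 with young 5 and 0.948 with young 6, against 0.989 between those, and beta-actin (Actb) took 4.06% of its counts against 0.555% to 1.36% elsewhere. CPM are counts scaled to a common library size after TMM normalization, and the scaling factor was 0.765 for young 4 and 1.04 to 1.08 for the others. Summed CPM of 9 stem cell and sort genes ran from 1749 to 2105 in aged and from 883 (young 4) to 1422 in young libraries. Of these 9, 5 were called higher in aged cells (4.26% of all tested genes) and 1 lower (1.5%). Of the lists for other cells, 6 neutrophil genes summed to at most 4.13 CPM in any library. The erythroid genes in the table, 5 of 7, summed to 36.3 to 119 CPM in aged and 89.0 (young 4) to 346 CPM in young libraries. Of these, 1 was called lower (1.5% of all tested genes). The 5 B cell genes summed to 59.7 to 87.3 CPM in aged and 74.3 to 134 (young 4) CPM in young libraries, and the 5 endothelial genes to 265 to 281 CPM in aged and 211 (young 4) to 240 CPM in young libraries. The 7 macrophage genes summed to 34.8 to 36.8 CPM in aged and 39.5 to 69.6 (young 4) in young libraries. The 5 T and NK cell genes summed to 117 to 209 CPM in aged and 4.98 to 9.78 CPM in young libraries. Of these 5, only 1 had enough counts to be tested and was called higher in aged cells (4.26% of all tested genes). Cd8a had 0 counts throughout. The 10 mitosis genes summed to 295 to 837 CPM in aged and 1836 to 2871 (young 4) in young libraries. Of these genes, 5 were called lower (1.5% of all tested genes). Their part in the results on complex I was not tested. In such bulk RNA, fewer cells of a type and less RNA per cell cannot be told apart.

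Every tested Nduf gene had a lower fitted level in aged than in young stem cells, but no single gene passed edgeR's test after adjustment. Young 4 was the highest library for nearly all of these genes. The Nduf genes together took 0.502%, 0.611% and 0.538% of all counts in aged 1, aged 2 and aged 3, and 0.951%, 0.667% and 0.626% in young 4, young 5 and young 6. The aged and young shares did not overlap. Of the 46 genes, 45 had enough counts to be tested. In the fit of all 6 libraries every one of the 45 had a negative log2 fold change (aged minus young), from -1.09 to -0.18 with a median of -0.65, where 47.3% of all tested genes were negative and the median of all was 0.04. By edgeR's quasi-likelihood test, 0 were called lower and 0 higher at an adjusted p of 0.05, where 1.5% of all tested genes were called lower and 4.26% higher. With p below 0.05 before adjustment, 18 of the 45 were lower (11.1% of all genes) and 0 were higher (13.9% of all genes). That count of lower members was 2 without aged 1, 11 without aged 2, 1 without aged 3 and 33 without young 6. The share of all genes in those fits was not computed. DESeq2 called 1 lower (6.9% of all genes) and 0 higher (9.36%). Limma-voom called 0 lower (1.77%), and with quality weights for the libraries it called 12 lower (13.2%). In 30 of the 45 genes (66.7%) all aged libraries lay below all young ones, which held for 17.6% of all tested genes. No member had all aged libraries above all young ones, which held for 19% of all genes. Within each age the members kept an order. Aged 2 was the highest aged library in 44 of the 45 (34.1% of all genes), aged 1 was the lowest in 30 and aged 3 in 15, and young 5 lay above young 6 in 41 (51.1% of all genes).

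**Figure D1:**
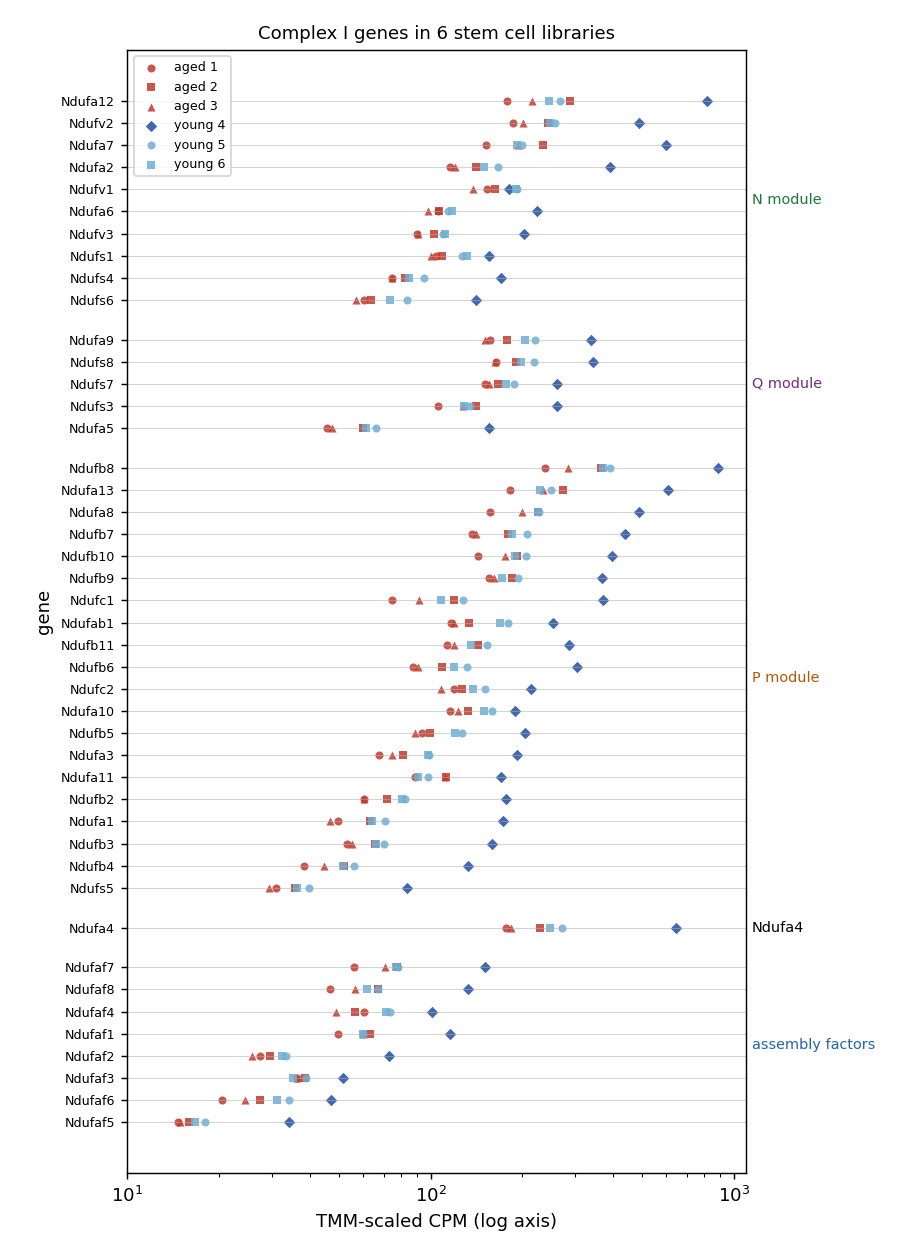
TMM-scaled CPM (log axis) of 44 tested Nduf genes in each of the 6 libraries, by module of the complex, with aged libraries in red and young ones in blue. Young 4 (dark blue diamonds) was the highest library for all genes shown but Ndufv1.

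Without young 4 the differences were smaller, and nearly all kept their direction. Young 4 was the highest of the 6 libraries in 43 of the 45 genes (35.5% of all tested genes), at a median of 1.96 times the mean of young 5 and young 6. Without it the members' median log2 fold change was -0.28, the range was -0.52 to 0.12, and 44 of the 45 stayed negative (46.6% of all genes). The exception was Ndufa11, a subunit of the membrane arm, at -0.20 with and 0.12 without young 4. The quasi-likelihood test then called 0 members lower (2.54% of all genes) and 0 higher (4.93%), and 17 had lower levels with p below 0.05 before adjustment (12.2% of all genes), 15 of them also among the 18 above. DESeq2 called 4 lower (7.02% of all genes): Ndufab1, Ndufa3, Ndufa9 and Ndufb5. Limma-voom called 0 (2.77%). Limma-voom with quality weights called 21 (15.9%), including all 12 it called with 6 libraries. That method weighted young 4 at 0.144 and aged 1 at 0.398, against 1.20 to 3.31 for the other libraries. The aged libraries lay below young 5 and young 6 in the same 30 genes (22.9% of all tested genes), a count that by construction holds every gene below all 3 young libraries.

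**Figure D2:**
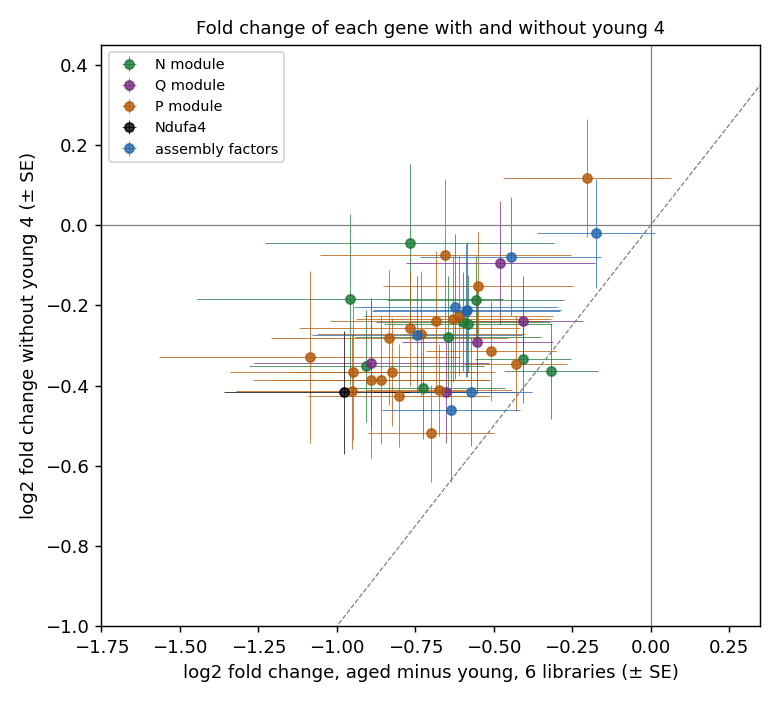
Log2 fold change (aged minus young) of 44 tested Nduf genes from all 6 libraries (x axis) and without young 4 (y axis), with standard errors as bars, the line of equality dashed, and colours for the modules. All genes shown but Ndufv1 lie above the dashed line, and all but Ndufa11 lie below 0 without young 4.

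The smallest p of all members belonged to Ndufab1, which encodes the mitochondrial acyl carrier protein, both a subunit of the membrane arm and a carrier in mitochondrial fatty acid synthesis (mm10 chromosome 7, 122088044 to 122101848, minus strand). Its level was 117, 134 and 119 CPM in aged 1 to aged 3 and 253, 180 and 169 CPM in young 4 to young 6. The aged values lay in a narrow band below every young value. The log2 fold change was -0.70 ± 0.20 (SE, adjusted p = 0.0894), and -0.52 ± 0.12 without young 4 (adjusted p = 0.0527). DESeq2 gave an adjusted p of 0.0184 with all 6 libraries. Among fits without young 4, median-ratio scaling gave an adjusted p of 0.0462 by edgeR, no filter on low counts 0.0321, and removal of each library's trend with gene length 0.0314. Reads of Ndufab1 are uncertain where they also match the processed pseudogene Ndufab1-ps that GENCODE lists.

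Next by p came an assembly factor. Ndufaf4 acts early, on the Q module (chromosome 4, 24898083 to 24905001, plus strand). It stood at 60.3, 56.4 and 48.7 CPM in aged and 101, 73.6 and 71.2 CPM in young libraries, again without overlap. Its log2 fold change was -0.57 ± 0.19 (adjusted p = 0.130), and -0.42 ± 0.13 without young 4 (adjusted p = 0.108). With the length trend also taken out the adjusted p without young 4 was 0.0423.

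The stretches before the start sites of 5 members are printed: Ndufab1 and Ndufaf4 for the smallest p, Ndufs6 and Ndufb4 for letters known to bind a regulator of respiratory genes, and Ndufv1 because young 4 was not its highest library. Ndufb4, whose groups overlapped, was chosen for its motifs alone. Each is the 250 bases before the start site from RefSeq (GRCm38.p6), 5′ to 3′ on the gene's strand. Capitals mark matches to the motif of nuclear respiratory factor 1 (GCGCA, any base, then GCGC), read on either strand.
Ndufab1: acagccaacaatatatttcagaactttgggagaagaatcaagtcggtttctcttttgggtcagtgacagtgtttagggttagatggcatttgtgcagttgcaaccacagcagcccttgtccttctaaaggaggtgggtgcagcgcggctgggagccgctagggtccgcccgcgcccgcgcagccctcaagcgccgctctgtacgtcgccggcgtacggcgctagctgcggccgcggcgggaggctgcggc
Ndufaf4: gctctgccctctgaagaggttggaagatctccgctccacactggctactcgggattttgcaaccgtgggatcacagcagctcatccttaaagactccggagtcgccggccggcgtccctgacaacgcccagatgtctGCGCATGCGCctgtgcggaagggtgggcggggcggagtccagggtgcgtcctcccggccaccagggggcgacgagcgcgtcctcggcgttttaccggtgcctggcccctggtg
Ndufs6: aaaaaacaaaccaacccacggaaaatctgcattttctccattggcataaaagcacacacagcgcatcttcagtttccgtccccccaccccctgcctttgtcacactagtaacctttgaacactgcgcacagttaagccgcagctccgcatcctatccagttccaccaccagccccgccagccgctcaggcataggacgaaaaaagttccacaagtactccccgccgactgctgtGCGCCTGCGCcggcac
Ndufb4: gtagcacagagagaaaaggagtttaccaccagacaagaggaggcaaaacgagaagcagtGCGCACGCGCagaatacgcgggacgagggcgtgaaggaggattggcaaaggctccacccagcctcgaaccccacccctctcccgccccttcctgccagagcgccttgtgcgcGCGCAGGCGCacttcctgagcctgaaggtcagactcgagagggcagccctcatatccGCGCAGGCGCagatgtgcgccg
Ndufv1: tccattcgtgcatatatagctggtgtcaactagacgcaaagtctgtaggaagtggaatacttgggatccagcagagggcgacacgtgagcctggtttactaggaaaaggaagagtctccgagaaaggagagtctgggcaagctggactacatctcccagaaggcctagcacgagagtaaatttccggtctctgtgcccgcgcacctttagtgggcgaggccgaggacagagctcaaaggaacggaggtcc
They lie at chr7:122101849-122102098 (minus strand), chr4:24897833-24898082 (plus strand), chr13:73328483-73328732 (minus strand), chr16:37654369-37654618 (minus strand) and chr19:4012756-4013005 (minus strand).

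RefSeq promoters, 300 bases each with 250 before and 50 after the start, were matched by symbol for 40 of the 46 members. Both strands were searched. The motif of nuclear respiratory factor 1 was found in 9 of the 40 (22.5%), against 4.6% of all 32851 promoters in the table. In Ndufaf4 it lay 113 to 104 bases before the start, in Ndufs6 16 to 7 bases before it, and Ndufb4 held it at 3 places. AAGATGGC, letters bound by YY1, was found in 8 (20.0%, against 2.75% of all), in each after the start and in none before it. CCGGAAG, bound by factors of the ETS family such as GABP, was found in 6 (15%, against 8.86%), CAAGGTCA, bound by estrogen-related receptors, in 1 (2.5%, against 1.56%), and TATAAA, the TATA box, in 4 (10%, against 13.6%). The letters for YY1 and ETS factors can share the bases AAG. At least 1 of the first 4 motifs was in 21 members (52.5%) and in 16.1% of all promoters. Member promoters were richer in G and C, with a median of 59.2% against 52.7%, and held a median of 20 CG pairs against 7. None of the 4 motifs was in the Ndufab1 or Ndufv1 window. A match is a description of the letters, not of binding.

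The N module had 10 tested genes, all with negative log2 fold changes (median -0.62, and -0.26 without young 4). The aged libraries lay below all young ones in 8 of the 10 (17.6% of all tested genes). Ndufv1, which binds NADH and flavin mononucleotide and takes up the electrons, stood at 154, 163 and 138 CPM in aged and 182, 192 and 192 CPM in young libraries (chromosome 19, 4007499 to 4012755, minus strand). This was the only N module gene in which young 4 was not the highest library. Its log2 fold change was -0.32 ± 0.15 (adjusted p = 0.233) with young 4 and -0.36 ± 0.12 (adjusted p = 0.113) without it.

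Ndufs1, the large core subunit that carries several iron-sulfur clusters, also had groups that did not overlap. Its values were 104, 109 and 100 CPM in aged and 156, 127 and 132 CPM in young libraries, with a log2 fold change of -0.41 ± 0.15 (adjusted p = 0.161). Its interval overlaps Ino80dos on the opposite strand, and the library kit does not mark strand. Ndufv2, the small core subunit next to Ndufv1, stood at 187, 245 and 201 CPM in aged libraries and at 486, 258 and 247 CPM in young ones. Here aged 2 came just below young 6, and the log2 fold change was -0.65 ± 0.30 (adjusted p = 0.225), or -0.28 ± 0.15 without young 4.

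Ndufs6, an accessory subunit that binds zinc and joins late, stood at 60.5, 63.6 and 56.6 CPM in aged and 141, 83.6 and 73.7 CPM in young libraries. The groups did not overlap, and the log2 fold change was -0.72 ± 0.26 (adjusted p = 0.149). Ndufa12, which takes the place of an assembly factor at the end of assembly, was the most abundant member per length, with a mean of 603 RPKM (scaled CPM per kb of the length in the table). It stood at 179, 289 and 217 CPM in aged libraries and at 818, 267 and 245 CPM in young ones. Aged 2 lay above young 5 and young 6, young 4 stood at 3.20 times their mean, and the log2 fold change moved from -0.96 ± 0.49 to -0.19 ± 0.21 without young 4. Ndufa7, an accessory subunit of the same module, went the same way, from -0.77 to -0.04.

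The Q module had 6 tested genes with a median log2 fold change of -0.52, or -0.30 without young 4. In 5 of the 6 the aged libraries lay below all young ones (17.6% of all tested genes). Ndufs7, which holds the last iron-sulfur cluster before ubiquinone, stood at 151, 167 and 156 CPM in aged and 261, 189 and 178 CPM in young libraries (log2 fold change -0.41 ± 0.19). Ndufs8, which holds the clusters before that, stood at 165, 192 and 163 CPM in aged and 345, 219 and 199 CPM in young libraries (log2 fold change -0.55 ± 0.24). In both genes the aged libraries lay below the young ones, with adjusted p-values of 0.236 and 0.209.

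Ndufs3, a core subunit with which the Q module starts to form, was the gene of this module with overlapping groups. It stood at 106, 141 and 128 CPM in aged and 261, 135 and 129 CPM in young libraries, so that aged 2 exceeded young 5 and young 6. Its log2 fold change was -0.48 ± 0.30 with young 4 and -0.09 ± 0.15 without it. Ndufa9, an accessory subunit where the Q module meets the membrane arm, had the smallest p of the module. Its values were 157, 178 and 151 CPM in aged and 338, 222 and 205 CPM in young libraries, without overlap. The log2 fold change was -0.65 ± 0.23 (adjusted p = 0.141), and -0.42 ± 0.13 without young 4 (adjusted p = 0.0949, or 0.0491 with the length trend taken out).

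The P module, the membrane arm, had 20 tested genes with a median log2 fold change of -0.72, or -0.32 without young 4. The aged libraries lay below all young ones in 12 of the 20 (17.6% of all tested genes). Young 4 was the highest library in all 20 (35.5% of all tested genes). Ndufb5 stood at 93.7, 99.9 and 89.2 CPM in aged and 204, 127 and 120 CPM in young libraries (log2 fold change -0.67 ± 0.23, adjusted p = 0.137, and 0.0781 without young 4). Ndufa3 stood at 67.5, 80.9 and 74.5 CPM in aged and 192, 98.6 and 98.1 CPM in young libraries (-0.80 ± 0.29, adjusted p = 0.149, and 0.0945 without young 4). Both encode accessory subunits with a membrane span.

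Ndufa10, a large accessory subunit on the matrix side of the arm, showed a smaller difference with less spread. Its values were 116, 132 and 123 CPM in aged and 191, 159 and 151 CPM in young libraries, a log2 fold change of -0.43 ± 0.16 (adjusted p = 0.162), or -0.35 ± 0.12 without young 4. Ndufb6 stood at 87.4, 109 and 91.2 CPM in aged and 305, 132 and 120 CPM in young libraries, a log2 fold change of -0.95 ± 0.37 (adjusted p = 0.170), or -0.41 ± 0.14 without young 4. The lowest value of all members, -1.09 ± 0.48, belonged to Ndufc1, at 74.7, 120 and 91.6 CPM in aged and 371, 128 and 109 CPM in young libraries. In Ndufc1 aged 2 lay above young 6, and without young 4 the value was -0.33 ± 0.22.

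A pair of members carry names that do not match their complex. Ndufa4 is now assigned to cytochrome c oxidase, complex IV. It stood at 178, 230 and 184 CPM in aged and 646, 271 and 248 CPM in young libraries, with a log2 fold change of -0.98 ± 0.38 (adjusted p = 0.175), or -0.42 ± 0.15 without young 4. Ndufa4l2, its relative known from cells short of oxygen, had 0 counts in all 6 libraries. A count of 0 allows up to 3 counts, or 0.132 CPM in young 6 to 0.239 CPM in young 4. Leaving out Ndufa4 moved the median of the subunits from -0.67 to -0.66.

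All 8 assembly factors were tested and none was called, with log2 fold changes from -0.74 to -0.18. The aged libraries lay below all young ones in 4 of them (17.6% of all tested genes): Ndufaf2, Ndufaf4, Ndufaf5 and Ndufaf6. Ndufaf6, an early factor related to phytoene synthases, stood at 20.5, 27.3 and 24.4 CPM in aged and 47.0, 34.2 and 31.1 CPM in young libraries (log2 fold change -0.64 ± 0.22, adjusted p = 0.136, and -0.46 ± 0.18 without young 4). Ndufaf2, a late factor for the N module, stood at 27.4, 29.5 and 25.8 CPM in aged and 73.1, 33.3 and 32.3 CPM in young libraries (-0.74 ± 0.33, and -0.27 ± 0.15 without young 4). Ndufaf5, which hydroxylates Ndufs7, was the least abundant tested member per length, with a mean of 6.16 RPKM. It stood at 14.7, 16.0 and 14.9 CPM in aged and 34.0, 18.1 and 16.7 CPM in young libraries (-0.59 ± 0.30, and -0.21 ± 0.17 without young 4).

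In the other assembly factors the groups overlapped. Ndufaf7, a protein arginine methyltransferase, stood at 55.9, 77.8 and 70.7 CPM in aged and 151, 78.3 and 77.2 CPM in young libraries. Ndufaf8, the partner of Ndufaf5, stood at 46.6, 67.2 and 56.2 CPM in aged and 133, 67.0 and 61.6 CPM in young libraries. Ndufaf1, a factor of the membrane arm, stood at 49.5, 63.0 and 60.0 CPM in aged and 116, 59.8 and 59.9 CPM in young libraries. In these genes aged 2 reached or passed a young library, and the log2 fold changes of -0.58 ± 0.30, -0.62 ± 0.32 and -0.45 ± 0.29 became -0.21, -0.20 and -0.08 without young 4. Ndufaf3, which acts with Ndufaf4, differed least: 36.2, 38.6 and 36.4 CPM in aged and 51.5, 38.9 and 35.1 CPM in young libraries. Its log2 fold change was -0.18 ± 0.19, or -0.02 ± 0.14 without young 4, and 0.02 with all libraries when no scaling factor was used.

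Subunits and assembly factors had medians close to each other, and the difference was not tested. The median log2 fold change was -0.67 over 37 subunit genes and -0.59 over 8 assembly factors, and without young 4 it was -0.31 and -0.21. Within each library, the subunits' median deviation from the gene means minus that of the assembly factors was -0.071, -0.044 and -0.076 in aged 1 to aged 3 and 0.064, 0.040 and 0.026 in young 4 to young 6. These values did not overlap between the ages. The order of the medians turned when each library's trend with gene length was taken out, with -0.58 for subunits and -0.68 for assembly factors, while without young 4 the same correction gave -0.34 and -0.30. The tested subunit genes had a median length of 0.735 kb and the assembly factors one of 2.10 kb. Summed CPM of the subunits was 13.9 to 14.6 times that of the assembly factors in aged libraries, 14.9 in young 5, 14.6 in young 6 and 16.6 in young 4.

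**Figure D3:**
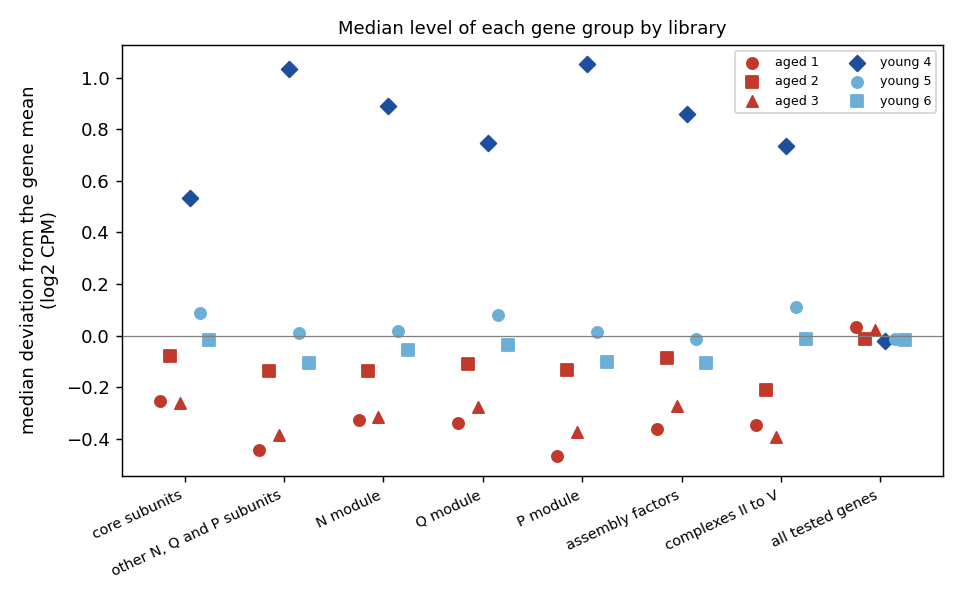
Median deviation of each gene group from the gene means (log2 CPM) in each library, for core and other subunits, the 3 modules, the assembly factors, complexes II to V and all tested genes. Young 4 stands at 0.53 for core subunits and 1.05 for the P module, and all tested genes lie near 0. All aged libraries are below 0 in every respiratory group, and so is young 6. In the assembly factors young 6 (-0.11) lies below aged 2 (-0.089).

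With all 6 libraries, the 7 nuclear core genes had smaller differences than the other subunits, and young 4 stood out less in them. These differences were not tested. Their median log2 fold change was -0.41, against -0.72 over the 29 other subunits of the 3 modules. Without young 4 the medians were -0.29 and -0.31. The core genes had a median length of 1.60 kb and the other subunits one of 0.647 kb, and the part of length was not tested. The median deviation of young 4 was 0.53 for core and 1.03 for the other subunits, while in aged libraries it was -0.26 to -0.08 for core and -0.44 to -0.14 for the others. The aged libraries lay below all young ones in 6 of the 7 core genes and 19 of the 29 others (17.6% of all tested genes).

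The level in young 4 moved with the length of the gene. Across the 45 tested members, which share the same libraries and are not independent, Spearman's rho of log2 length with the log2 level of young 4 over young 5 and young 6 was -0.65. Over all 13413 tested genes it was -0.13. The 15 shortest members (0.345 to 0.599 kb) stood in young 4 at 1.80 to 3.20 times the mean of young 5 and 6, with a median of 2.45. The 15 longest (1.24 to 4.20 kb) stood at 0.948 to 2.55 times, with a median of 1.84. In the members, the difference of aged libraries from young 5 and young 6 showed little of this order, with a rho of 0.12. Over all genes that rho was 0.10, near in size to the -0.13 for young 4 and opposite in sign. The members' log2 fold change from all 6 libraries had a rho of 0.64 with log2 length. With the length trend of each library taken out, the members' median log2 fold change was -0.58, where the median of all genes had moved from 0.04 to -0.11, and 0 members were called (3.22% of all genes were called lower).

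**Figure D4:**
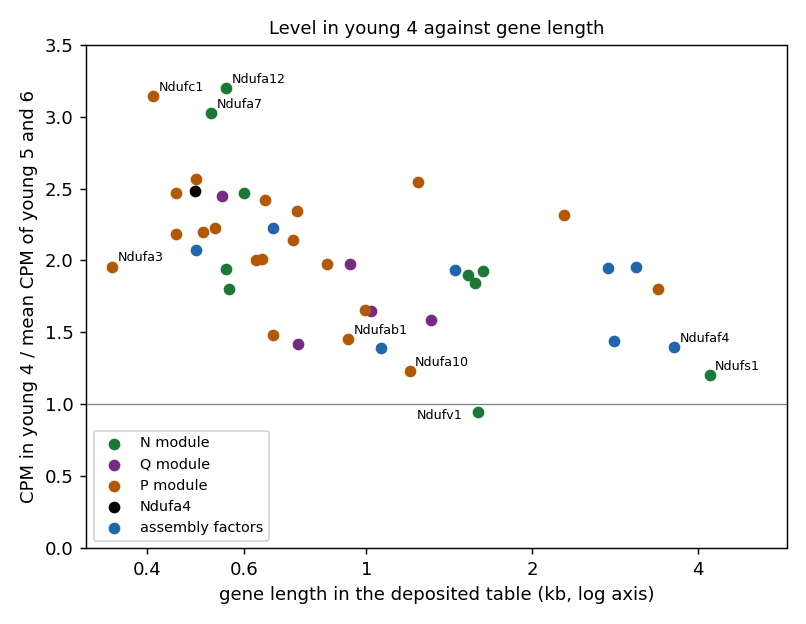
CPM in young 4 divided by the mean CPM of young 5 and young 6 (y axis) against gene length in the deposited table (kb, log axis) for 44 tested Nduf genes, coloured by module. Short genes such as Ndufa12 (3.20) and Ndufc1 (3.14) stand highest, and the longer core gene Ndufv1 (0.948) lies just below the line that marks equal levels.

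Other genes that serve complex I were taken from lists by function, and their difference from the Nduf genes was not tested. Of 13 assembly factors with other names, 12 were in the table and tested, 0 were called, and 1 was lower at an unadjusted p under 0.05, with a median log2 fold change of -0.25, or -0.12 without young 4. DESeq2 called 0 and limma-voom with quality weights 1. The gene at an unadjusted p under 0.05 was Dmac1, a membrane arm factor listed as Tmem261, whose mean was 53.3 ± 5.71 CPM when aged against 80.3 ± 16.1 CPM when young (SD, n = 3 each, adjusted p = 0.120 by edgeR). Aifm1, the apoptosis-inducing factor that also supports assembly of the chain, stood at 92.1, 124 and 115 CPM in aged and 229, 135 and 131 CPM in young libraries (adjusted p = 0.217 by edgeR). Timmdc1, a membrane arm factor, stood at 29.1, 72.7 and 50.5 CPM in aged and 203, 38.9 and 46.7 CPM in young libraries, so only young 4 lay above the aged range. The iron-sulfur factor Nubpl averaged 18.3 ± 1.65 CPM when aged against 19.8 ± 0.98 CPM when young (SD, n = 3 each).

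Genes that control transcription of respiratory genes and mitochondrial DNA showed no shared direction. Of 12, 0 were called and 0 had an unadjusted p under 0.05 by edgeR, 6 were negative, and the median log2 fold change was 0.0045. Limma-voom with quality weights called 1 lower and DESeq2 called 0. In 4 of the 12 (Gabpa, Gabpb1, Yy1 and Tfam) all aged libraries lay below all young ones (17.6% of all tested genes). In 0 they lay above (19%). Nrf1, the factor whose motif is printed above, stood at 91.3, 56.7 and 67.8 CPM in aged and 45.3, 97.9 and 95.0 CPM in young libraries. It was lowest in young 4, where nearly all complex I genes were highest. Its log2 fold change was -0.14, or -0.45 without young 4 (adjusted p = 0.206 by edgeR). Yy1 stood at 19.7, 24.5 and 23.3 CPM in aged and 64.1, 25.9 and 25.7 CPM in young libraries. Tfam, which packages mitochondrial DNA and starts its transcription, stood at 67.3, 71.3 and 64.3 CPM in aged and 136, 79.5 and 71.3 CPM in young libraries. Neither Yy1 nor Tfam passed the test, with adjusted p-values of 0.247 and 0.268 by edgeR. Of 6 mitochondrial quality-control proteases, edgeR called 0, and 0 had an unadjusted p under 0.05 (11.1% of all genes lower and 13.9% higher). DESeq2 and limma-voom with quality weights also called 0 (6.9% and 13.2% of all genes were called lower). The median log2 fold change was -0.24, or -0.08 without young 4. Lonp1, a protease of the matrix, had the smallest p of the 6 proteases. It stood at 34.2, 36.8 and 39.7 CPM in aged and 47.1, 42.9 and 46.6 CPM in young libraries, without overlap (log2 fold change -0.30 ± 0.15, adjusted p = 0.250 by edgeR, and -0.30 without young 4). Yme1l1, a protease of the inner membrane, stood at 249, 493 and 381 CPM in aged and 1479, 311 and 341 CPM in young libraries. Clpp, a protease known to act on the N module, averaged 100.2 ± 2.72 CPM when aged against 102 ± 5.34 CPM when young (SD, n = 3 each).

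The nuclear genes of complexes II to V, the rest of the chain and the ATP synthase, were taken by symbol for comparison. Atp5sl was left out because it is Dmac2, a complex I assembly factor counted above. Of the 43 tested genes 41 were negative, with a median log2 fold change of -0.65, or -0.36 without young 4. In 26 of them p was under 0.05 before adjustment with aged cells lower (11.1% of all genes). In 31 all aged libraries lay below all young ones (17.6% of all genes). The difference from complex I was not tested. With all 6 libraries edgeR called 1 of these genes lower (1.5% of all genes), the complex IV isoform gene Cox6b2. Its mean was 21.1 ± 1.05 CPM when aged against 37.4 ± 4.97 CPM when young (SD, n = 3 each, adjusted p = 0.0422 by edgeR). No gene of these complexes was called lower with the length trend taken out (3.22% of all genes). DESeq2 called 12 of the 43 lower (6.9% of all genes), limma-voom 1 (1.77%) and limma-voom with quality weights 21 (13.2%). Without young 4, edgeR made 4 calls, all lower (2.54% of all genes were called lower): Cox6b2, Cox5a, Atp5e and Atp5g1.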

How the data were processed

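The authors deposited 1 table of whole-number read counts per gene, with mm10 coordinates and a gene length in kb. Per the labels' protocols, total RNA was amplified with the SMART-Seq v4 kit, which does not mark strand, and read as single reads of 51 cycles. Per the submitters' processing notes, Trimmomatic, STAR 2.6.0, HTSeq 0.11.1 and edgeR were used, with no roles or settings named; the annotation is not given in the sources used here, nor is the handling of reads with several matches.

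Groups came from the sample titles. The counts went into edgeR 4.0.16 under R 4.3.3 (filterByExpr, TMM, estimateDisp, glmQLFit, glmQLFTest) with age as the only term and Benjamini-Hochberg adjustment over all 13413 genes tested (13779 without young 4), threshold 0.05. Standard errors are the log2 fold change over the root of the F statistic. Deviations use log2 CPM with a prior count of 2. The edgeR fits with and without a length trend, DESeq2 and limma-voom were run on simulated counts. Those counts held no library that stood apart, and limma-voom with quality weights was not run on them. Alternatives were other scalings and filters (5 CPM in 3 libraries, or none), DESeq2 1.42.0, limma-voom (limma 3.58.1), a length trend (spline with 4 degrees of freedom) and each library left out. Among the 46 members, 18 intervals overlap another row, so some reads may be ambiguous.

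The members and lists were chosen with earlier results of these data known. Genes given in full were the assembly factors, the nuclear core subunits, the 10 members with the smallest p, the extremes per length, Ndufa4, Ndufa4l2 and Ndufab1. The values of 1 gene under this rule are not reported here. Ndufa7, Ndufa11, Ndufc1 and Ndufb4 were added after their values were seen. So were the genes named from other lists beyond those of smallest p (Timmdc1, Nubpl, Nrf1, Gabpa, Gabpb1, Clpp). The motifs, the split by length and the leaving out of Atp5sl were also added after values were seen.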

Additional observations from a re-analysis of the deposited data

How the results depend on the processing

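The count of members called lower, 0 with all 6 libraries (1.5% of all genes), was 1 by DESeq2 (6.9%). It was 12 by limma-voom with quality weights (13.2%). It stayed 0 with the other alternatives, each left-out library included. Without young 4 it was 0, but 1 with median-ratio size factors, 1 without a filter on low counts, 4 by DESeq2, 21 by limma-voom with quality weights and 3 with the length trend taken out. At an unadjusted p under 0.05 the 18 lower members (11.1% of all genes) became 11 with upper-quartile factors, 11 by limma-voom and 30 without a filter. With single libraries left out that count ran from 1 to 33. Among these alternatives the share of all genes at an unadjusted p under 0.05 was computed only without young 4 (12.2%). The median log2 fold change of subunits ran from -0.82 to -0.31 and that of assembly factors from -0.76 to -0.21 with single libraries left out, and quality weights put the assembly factors at -0.19. Of 24 genes named by the rule, checked under 15 alternatives each, 1 value changed sign: the Ndufaf3 log2 fold change, at 0.020 with library totals only. A further 12 values became calls, 11 of them with quality weights. The cause was not tested. The median of all genes moved by 0.16 with library totals only, by 0.23 without a filter and by -0.15 with the length trend taken out. Relative to it the subunits stood at -0.64, -0.95 and -0.47, against -0.71. No paired analysis was possible because the replicate numbers of the groups do not overlap. Tested members had 307 to 11127 counts in each library, and the number of libraries, 3 a group, limits the precision.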

Other observations

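The spread of the members' deviations within a library (interquartile range, log2) was 0.12 in aged 2, 0.22 in aged 1 and 0.41 in young 4, against 0.35, 0.68 and 1.06 over all tested genes.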
